A study of Mus musculus with 20 samples.

Results

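The olfactory receptor genes of the mouse were followed through every library of a study of the H3K4 methyltransferase Kmt2b in mouse germline stem cells, which are spermatogonial stem cells kept in culture. Members were all rows whose gene symbol is Olfr followed by a digit, which gave 1110 of the 25965 gene windows measured in chromatin and 1099 of the 25067 genes measured in RNA. The rule used no measured value, though earlier results of these data were known when it was set. The tables hold 1 value per gene and library, as log2 RPM, the number of reads scaled to library size and put on a log2 scale. How long the chromatin window of a gene is, and where it sits on the gene, is not given in the sources used here.

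Control cells (Kmt2b F/F) carried floxed Kmt2b alleles together with Rosa26-CreERT2, a Cre recombinase that tamoxifen switches on, and received ethanol as a mock treatment. Such cells exposed to 1 μM 4-hydroxytamoxifen (4-OHT) became the knockout (Kmt2b FC/FC), so that control cells also hold the Cre transgene, and genotype and 4-OHT exposure cannot be told apart. Both were grown on fibroblast feeder cells and harvested 6 days after treatment. For each genotype there are 2 libraries each of H3K4me3, H3K27me3, input DNA (sheared chromatin without immunoprecipitation) and RNA. H3K9me3 has 2 libraries, from control cells alone, and 2 separate inputs. These 4 were prepared with the ThruPLEX kit and the other chromatin libraries with NEBNext. The treatment and harvest day of the H3K9me3 cells are not given. The experiments used duplicate cell lines, so each group has n = 2, and p-values measure the spread between these libraries.

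Olfactory receptors are G protein-coupled receptors that bind odorants on the cilia of olfactory sensory neurons. They form the largest gene family of the mouse, lie in clusters on most chromosomes, and each neuron expresses a single allele of a single receptor. In those neurons and their precursors the clusters are packed into heterochromatin with H3K9me3, and the chosen allele is relieved of it. H3K9me3 marks heterochromatin, H3K4me3 marks active and CpG-rich promoters, and H3K27me3 is the mark of Polycomb repression.

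The members lay on 18 chromosomes, and 1073 of the 1110 fell into 30 clusters, defined as runs of at least 5 members whose starts are no more than 1 Mb apart. The other 37 lay alone or in smaller groups. By the MOR family number among the RefSeq synonyms, 126 belonged to class I (the fish-like receptors) and 948 to class II, and 36 had no single family number. The cluster on chromosome 7 from Olfr543 to Olfr692 held 124 of the class I members among its 129. Most gene models span only the coding exon: the median span was 957 bp, and 962 members spanned no more than 1200 bp. The nearest start of a gene that is not a member lay at a median distance of 109622.5 bp, and 8 members had one within 2000 bp.

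RefSeq promoter sequences (build GRCm38.p6, 250 bases before to 50 after the start) were at hand for 919 members. Their median number of CG dinucleotides was 1, against 7 over all 32851 promoters in the same table. There were 33 member promoters with at least 5 CG (3.59%, against 62.0% of all), and 309 had none. The median GC content was 35.0%, against 52.7%. An ATG stood at the start base in 73.2% of member promoters and in 5.83% of all, so that for many members the annotated start is the start codon and not a mapped transcription start, and the last 50 bases of the window are coding. Counted over both strands in the 948 promoter entries of these members, TATAAA was found in 41.0% (13.6% of all promoters) and the homeodomain core TAATTA in 18.6% (5.29%). Both motifs hold only A and T, and member promoters are poorer in GC. The shares were not compared at equal base composition, so they do not show an excess of either motif beyond it. A match describes the letters of the window and not a bound site. The following 4 promoters are shown, 5′ to 3′ with every CG in capitals, because they span the combinations of marks described below. Olfr212 (chr6:116506266-116506565, plus strand, 13 CG) has all 3 marks, Olfr750 (chr14:51071393-51071692, minus strand, 11 CG) and Olfr95 (chr17:37211802-37212101, minus strand, 1 CG) have H3K4me3 and H3K27me3, and Olfr340 (chr2:36452337-36452636, plus strand, no CG) has H3K9me3 and H3K27me3.
Olfr212: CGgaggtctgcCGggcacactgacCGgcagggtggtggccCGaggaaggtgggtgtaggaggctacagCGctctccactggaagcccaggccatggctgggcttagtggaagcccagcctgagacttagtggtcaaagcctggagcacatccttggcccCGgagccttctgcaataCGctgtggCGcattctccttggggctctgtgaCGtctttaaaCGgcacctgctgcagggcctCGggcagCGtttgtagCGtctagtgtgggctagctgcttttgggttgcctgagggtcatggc
Olfr750: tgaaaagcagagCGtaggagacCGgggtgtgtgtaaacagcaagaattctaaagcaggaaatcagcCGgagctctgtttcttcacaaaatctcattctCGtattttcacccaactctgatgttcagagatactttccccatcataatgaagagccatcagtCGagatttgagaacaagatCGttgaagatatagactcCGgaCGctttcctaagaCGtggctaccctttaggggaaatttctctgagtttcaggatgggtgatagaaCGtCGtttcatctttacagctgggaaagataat
Olfr95: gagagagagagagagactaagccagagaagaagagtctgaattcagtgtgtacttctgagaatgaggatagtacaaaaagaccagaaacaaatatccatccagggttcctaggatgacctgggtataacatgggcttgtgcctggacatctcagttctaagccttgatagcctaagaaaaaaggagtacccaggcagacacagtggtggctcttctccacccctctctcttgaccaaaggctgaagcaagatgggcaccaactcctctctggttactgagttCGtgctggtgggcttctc
Olfr340: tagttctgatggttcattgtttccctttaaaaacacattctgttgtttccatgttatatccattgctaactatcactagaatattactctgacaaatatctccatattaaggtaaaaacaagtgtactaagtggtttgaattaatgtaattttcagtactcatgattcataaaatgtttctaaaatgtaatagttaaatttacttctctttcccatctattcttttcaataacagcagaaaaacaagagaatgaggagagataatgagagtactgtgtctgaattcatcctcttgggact
Olfr212 is the richest in CG of all member promoters, and its GC content is 62.3%, against 43.3%, 48.3% and 30.3% in the other promoters in the order printed. Olfr95 and Olfr340 have ATG at the start base, and the only CG of Olfr95 lies after it, in coding sequence.

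The H3K4me3 libraries held between 3830045 (knockout replicate 1) and 18035122 mapped reads, H3K27me3 between 10538531 and 14810135, their inputs between 10967790 and 14405261, H3K9me3 and its inputs between 41099186 and 63537169, and RNA between 38458010 and 45771857. In H3K4me3 knockout replicate 1 a single read is worth 0.261 RPM, and 567 of the 1110 members had no read there, against 82 in knockout replicate 2 and 266 and 174 in the controls. RNA over the whole Kmt2b gene was 142 and 150 RPM in control and 131 and 185 RPM in knockout. The deleted part of the gene is not given in the sources used here, so this level does not check the labels. All 11 germline stem cell markers were at 1 RPM or more in RNA, as were all 10 fibroblast feeder markers, whose summed level was 411 and 440 RPM in control and 446 and 581 RPM in knockout. Of 8 olfactory sensory neuron markers, 7 are in the RNA table and sum to 52.6 to 62.7 RPM, nearly all of it from Adcy3, Gnal and Gng13. The chaperone Rtp1, which carries receptors to the cell surface, was at 0.0113 RPM in control and 0.0109 RPM in knockout. Libraries were made from bulk cultures, in which fewer cells with a mark or transcript and less of it per cell cannot be told apart.

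Summed over the family, receptor windows held more H3K9me3 than input, about as much H3K27me3 as input and less H3K4me3 (the plot of reads by library). The mean over the 1110 members was 0.526 and 0.672 RPM in the 2 H3K9me3 libraries and 0.302 and 0.333 RPM in their inputs, so that the groups did not overlap. Summed over members, H3K9me3 was 1.89 times its input (1.66 and 2.12 in the 2 libraries), against 0.427 over all windows. Members make up 4.27% of windows and took 3.30% and 3.46% of the input reads that fell in windows, but 13.0% and 16.9% of the H3K9me3 reads. H3K27me3 in members was close to input, at 0.487 and 0.483 RPM in control and 0.493 and 0.486 RPM in knockout, where input gave 0.417 and 0.402 RPM and 0.400 and 0.408 RPM. H3K4me3 lay below input, at 0.245 and 0.218 RPM in control and 0.293 and 0.232 RPM in knockout. The ratio of sums in control was 1.18 for H3K27me3 and 0.566 for H3K4me3, where all windows gave 1.57 and 19.6.

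**Figure D1:**
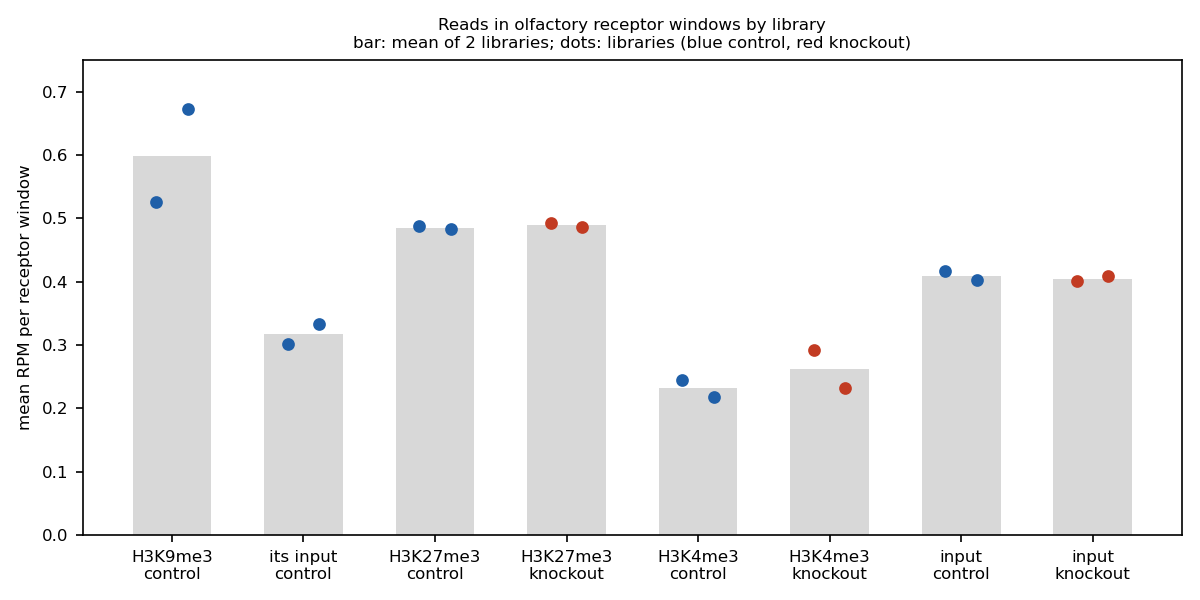
Mean RPM per olfactory receptor window (vertical axis) in 16 chromatin libraries, grouped by mark and genotype. Bars are means of 2 libraries and dots are the libraries. Both H3K9me3 libraries, at 0.526 and 0.672 RPM, lie above their inputs, and the 4 H3K4me3 libraries lie below the 4 inputs.

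Each window was tested against input with limma over all windows. H3K9me3 was called higher than input (adjusted p under 0.05) in 362 of the 1089 members tested, 33.2%, where the share over all windows tested was 5.69%. It was called lower in 156, 14.3%, where all windows gave 81.2%. The median log2 difference was 0.31 in members and -2.54 over all windows tested. Since that median lies far from 0, the direction of a call depends on the scaling: after centring each library on its median, 836 members were called higher and 0 lower. The values below are on the deposited scale.

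The largest differences were at Olfr742, Olfr741 and Olfr135. Olfr742 (chr14:50515121-50516240) had 1.05 and 1.26 RPM of H3K9me3 and 0.126 and 0.0946 RPM in the inputs, a log2 difference of 3.40 (SE 0.37, adjusted p 0.000664). Its neighbour Olfr741 (chr14:50485460-50486395) had 2.29 and 1.82 RPM against 0.205 and 0.213 RPM, a difference of 3.29 (SE 0.32). Both H3K9me3 libraries exceeded both inputs at each of these genes, which were picked for their large differences. Olfr135 and Olfr136, which both lie in the chromosome 17 cluster, reached 3.27 (SE 0.43) and 3.11 (SE 0.32). Olfr398 (chr11:73983662-73990059) had 2.94 and 2.84 RPM against 0.283 and 0.473 RPM. At the other end, Olfr71 (chr4:43705628-43710231) had 2 and 1 reads in the H3K9me3 libraries (0.0487 and 0.0197 RPM) and 29 and 27 reads in the inputs (0.456 and 0.639 RPM), a log2 difference of -4.12 (SE 0.64, adjusted p 0.00125). Olfr90, at the edge of the chromosome 17 cluster that also holds Olfr135, differed by -3.94 (SE 0.51). Members of 1 cluster could thus lie on either side of input.

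Over the clusters, the H3K9me3 ratio to input ranged from 0.251 to 4.79 (the plot of H3K9me3 by cluster). In 20 of the 30 clusters both H3K9me3 libraries exceeded the mean input, and in 8 both lay below it. The highest was the chromosome 2 cluster from Olfr338 to Olfr368 (chr2:36376778-37332733), at 4.79 times input (4.54 and 5.03), where 26 of 28 members were called higher and none lower. The chromosome 10 cluster from Olfr1357 to Olfr57 followed at 4.68 (5.09 and 4.27; 8 of 9 called higher), then the chromosome 16 cluster from Olfr164 to Olfr171 at 4.36 (3.52 and 5.21; 6 of 8) and the chromosome 11 cluster from Olfr20 to Olfr412 at 3.57 (3.69 and 3.44; 20 of 29). These 4 neighbours in the order overlap in part: the ranges of the first 3 overlap, and that of the chromosome 11 cluster overlaps only the range of the chromosome 16 cluster. The chromosome 9 cluster from Olfr24 to Olfr18 stood at 3.25, but its libraries were 2.38 and 4.13. In 11 clusters, with 367 members, the ratio was above 2.

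The 8 clusters in which both libraries lay below input held 5 to 23 members each. The chromosome 4 cluster from Olfr70 to Olfr155 (chr4:43695000-43855463) was lowest at 0.251 (0.287 and 0.215), with 4 of 6 members called lower. The chromosome 1 cluster from Olfr1416 to Olfr12 stood at 0.423, the chromosome 6 cluster from Olfr459 to Olfr47 at 0.526, the chromosome 15 cluster from Olfr288 to Olfr279 at 0.596, and the chromosome 11 cluster from Olfr30 to Olfr225 at 0.676. The largest cluster, on chromosome 2 from Olfr987 to Olfr1272 with 221 members, stood at 1.58 (1.25 and 1.90), with 52 called higher and 19 lower. The class I cluster on chromosome 7 stood at 1.12 (1.04 and 1.21), with 19 called higher and 27 lower. Over all class I members the ratio was 1.14 (1.05 and 1.22), and over class II 2.00 (1.75 and 2.25). All but a few of the class I members are in that cluster, so receptor class and place in the genome cannot be told apart. The outermost 2 members at each end of the 15 clusters of at least 20 had a ratio of 1.93, and their inner members 1.98. Library 2 exceeded library 1 in 18 of the 30 clusters, and the summed ratio of all members was 2.12 in it and 1.66 in library 1.

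**Figure D2:**
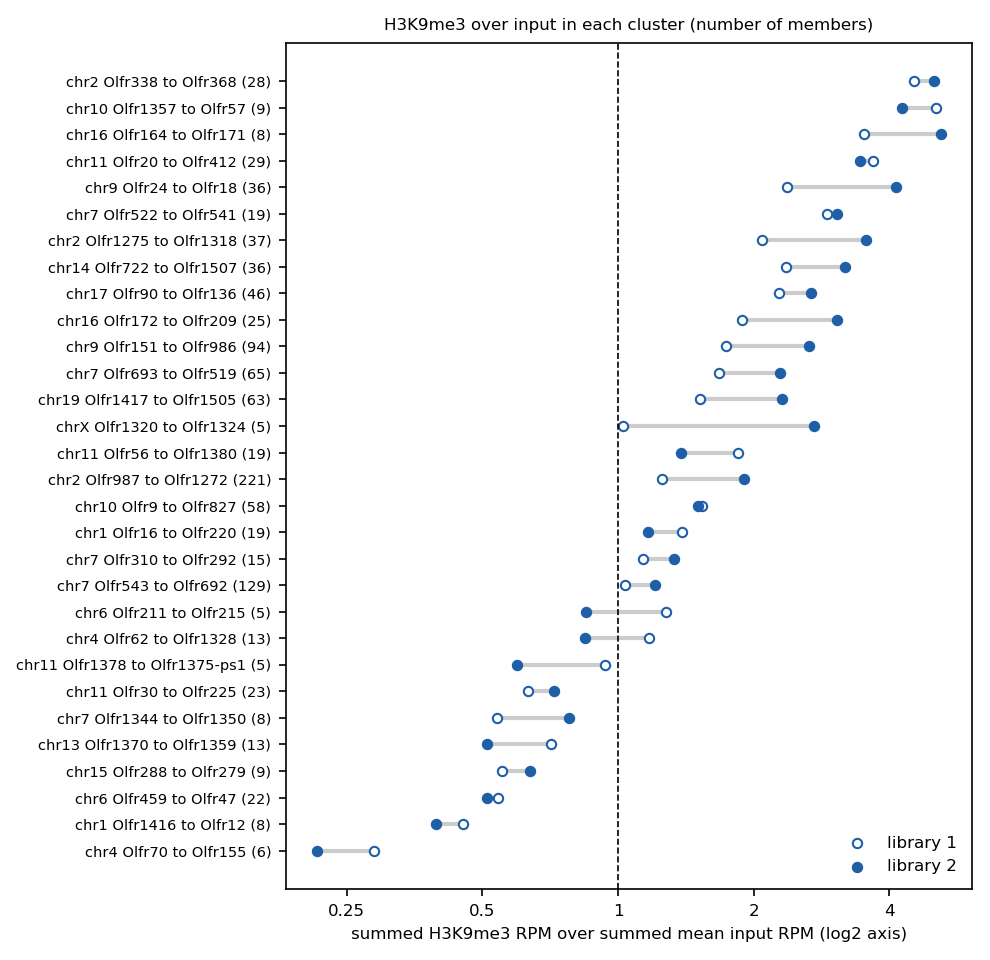
H3K9me3 over input in each of the 30 clusters (rows, with the number of members), as the summed RPM of each H3K9me3 library over the summed mean of its 2 inputs on a log2 axis. Open and filled dots are libraries 1 and 2, and the dashed line is a ratio of 1. The chromosome 2 cluster from Olfr338 to Olfr368 lies at 4.79 and the chromosome 4 cluster from Olfr70 to Olfr155 at 0.251.

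Other gene families that lie in arrays gave these values beside the receptors. Of Vmn1r and Vmn2r windows, which encode vomeronasal receptors, 101 of 162 and 50 of 95 tested were called higher for H3K9me3, with ratios of 2.87 and 2.76. Of Taar windows, which encode the trace amine receptors of the nose, 0 of 14 were called higher and 8 lower, with a ratio of 0.421. Of Zfp windows, which encode zinc finger proteins, 16 of 353 tested were called higher and 310 lower, with a ratio of 0.353. The shares over all windows tested were 5.69% higher and 81.2% lower, and the ratio over all windows was 0.427. The 255 genes that lie within the receptor clusters without belonging to the family gave a ratio of 0.732, and 28 of 245 tested were called higher. The differences between families were not tested.

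H3K4me3 was found at few receptor windows. In control cells 23 of 695 members tested were called higher than input, 3.31%, where all windows gave 70.4%, and 207 were called lower, 29.8%, where all windows gave 6.62%. The median log2 difference was -1.52 in members and 4.45 over all windows tested. Centred on that median, no member was called higher and 684 lower, so the marked members lie above input and below the median window. The filter on the mean of ChIP and input left 415 members untested, and it keeps members with more of the mark more readily. With only windows without any read left out, 23 of 1105 members were called higher and 294 lower. Over all 25060 windows so tested, 15618 were called higher and 1950 lower. In 20 clusters no member was called higher. The chromosome 15 cluster from Olfr288 to Olfr279 had the highest ratio, 5.28 (4.67 and 5.88), and 4 of its members were called higher (Olfr279, Olfr281, Olfr282 and Olfr283).

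At Olfr282 (chr15:98437470-98438397) the H3K4me3 libraries gave 6.85 and 9.65 RPM in control, and the inputs 0.365 and 0.486 RPM, a log2 difference of 4.27 (SE 0.45, adjusted p 6.38e-06). Olfr315 on chromosome 11 gave 6.85 and 7.60 RPM against 0.365 and 0.417 RPM (4.21, SE 0.44). The highest level was at Olfr750, with 8.01 and 9.70 RPM against 0.821 and 0.555 RPM (3.71, SE 0.41). Control ChIP and input did not overlap at any of the 3, which were picked for their difference or level. Of all windows tested, 70.4% were called higher than input. Olfr601, Olfr606 and Olfr658 were the 3 marked members of the class I cluster, with 2.41 and 2.88 RPM, 2.22 and 2.50 RPM, and 2.70 and 3.11 RPM. Among the members lowest against input, Olfr1031 had 1 and 0 reads of H3K4me3 and 11 and 14 reads of input, a difference of -3.83 (SE 0.78), which is within a few reads of the floor at which no read is recorded.

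Promoter CG content and H3K4me3 went together as a description of these windows, with no test (the plot of CG count and H3K4me3). CG was counted in the first RefSeq promoter entry of a gene, whose start need not be that of its gene model. At Olfr398, on the minus strand, the sequence lies at chr11:73984557-73984856 and the gene model starts at 73990059. Of the 33 members with at least 5 CG, 23 were tested and 11 were called higher for H3K4me3. With 1 to 4 CG it was 6 of 358 tested, and with no CG 0 of 198. The other 6 marked members had no promoter sequence at hand. The summed H3K4me3 ratio was 3.29, 0.471 and 0.390 in these 3 groups. H3K9me3 ran the other way, at 0.634, 1.84 and 2.12 times input, and 1 of 31, 181 of 570 and 117 of 302 members tested were called higher. The 23 members called higher for H3K4me3 also lay closer to other genes, with a median of 36267 bp to the nearest start outside the family. Counted in the 250 bases before the start alone, it was 8 of 17 tested with at least 5 CG, 8 of 304 with 1 to 4 and 1 of 258 with none. The last was Olfr95, printed above, with 5.41 and 7.87 RPM.

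**Figure D3:**
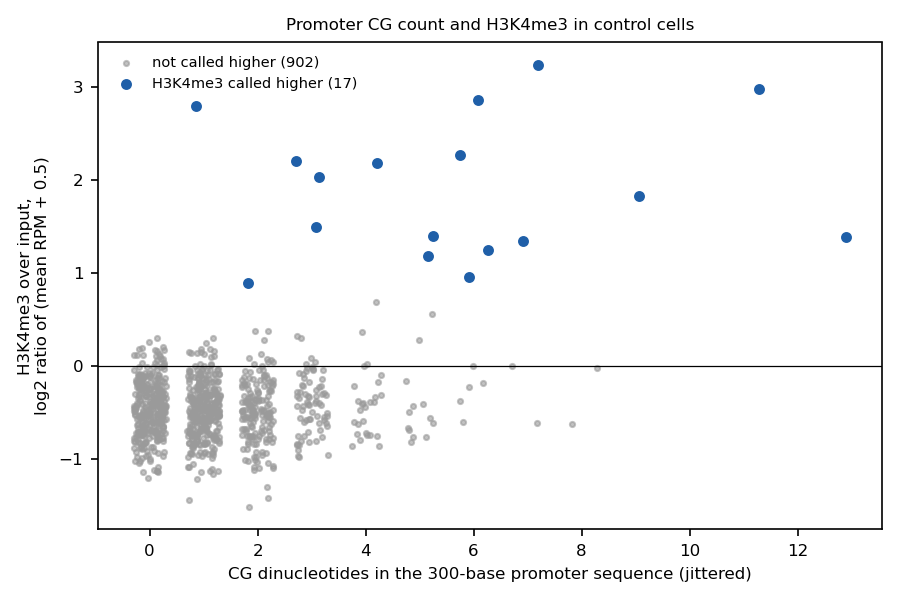
H3K4me3 over input in control cells (vertical axis, log2 ratio of mean RPM + 0.5) against the number of CG dinucleotides in the 300-base promoter (horizontal axis, jittered), for the 919 members with a promoter sequence. Blue dots are the 17 members called higher for H3K4me3 by limma. With no CG, 0 of 309 members are blue.

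H3K9me3 and H3K4me3 were measured against separate inputs, so their calls can be set side by side. Of the 23 members called higher for H3K4me3, 12 (52.2%) were called lower for H3K9me3, which is 7.69% of the 156 called lower, and 1 (4.35%) was called higher, which is 0.276% of the 362. That member was Olfr212, named here after its values were seen. It had 1.07 and 0.632 RPM of H3K9me3 against 0.205 and 0.213 RPM (log2 difference 1.98, SE 0.38), and 1.35 and 1.16 RPM of H3K4me3 against 0 and 0.347 RPM of input. Its H3K27me3 was 2.33 and 1.10 RPM. The 23 windows together had 0.565 times their input of H3K9me3, and the members not called higher for H3K4me3 had 1.92.

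H3K27me3 was called higher than input in 35 of 973 members in control, 3.60%, where all windows gave 14.2%, and lower in 2 (Olfr303 and Olfr1031), 0.206%, where all windows gave 3.78%. The median log2 difference was 0.04 in members and -0.35 over all windows tested. Leaving out input replicate 1 or 2 ended every call, over all windows (0 of 23281, from 3306) as in members, of which 38 and 61 were higher at an unadjusted p under 0.05. Calls of the 35 fell on both sides of H3K9me3 (the plot of H3K9me3 and H3K4me3): 16 were called higher for H3K9me3 (45.7%, which is 4.42% of the 362), 8 lower (22.9%, which is 5.13% of the 156) and 11 neither. Over all members tested, 33.2% were called higher for H3K9me3 and 14.3% lower. The 16 and the 8 were chosen by their calls of H3K9me3 and H3K27me3, so the ratios of these marks follow from the choice. Summed H3K9me3 was 4.72 times input in the 16 and 0.294 times in the 8, and H3K27me3 5.12 and 7.33 times. H3K4me3 was 0.788 times input in the 16 and 6.95 times in the 8. H3K4me3 and H3K27me3 share their inputs, so a window low in input is high in both.

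The 16 included Olfr338, Olfr340, Olfr344 and Olfr362 of the chromosome 2 cluster, which is also the highest in H3K9me3. Olfr340 had 2.34 and 2.35 RPM of H3K9me3 against 0.315 and 0.284 RPM, and 3.56 and 3.11 RPM of H3K27me3 in control and 3.71 and 1.61 RPM in knockout, against 0.547 and 0.347 RPM and 0.507 and 0.351 RPM of input. Its H3K4me3 was 0.193 and 0.0554 RPM. Olfr362 was alike, with 2.38 and 2.55 RPM of H3K9me3 and 3.63 and 3.11 RPM of H3K27me3. The 8 included Olfr95, Olfr750, Olfr15, Olfr222 and Olfr1344. Olfr95 had the highest H3K27me3 of all members, 7.46 and 5.13 RPM in control and 6.82 and 5.88 RPM in knockout (log2 difference in control 3.62, SE 0.53, adjusted p 3.88e-10), with 0.122 and 0.158 RPM of H3K9me3. Olfr222 had 6.29 and 4.39 RPM of H3K27me3, 1.93 and 2.61 RPM of H3K4me3 and 0.0730 and 0.118 RPM of H3K9me3. By cluster, H3K27me3 was highest in the 5 members of chromosome 6 from Olfr211 to Olfr215, at 3.92 times input (4.58 and 3.26), and in the chromosome 15 cluster, at 3.50.

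**Figure D4:**
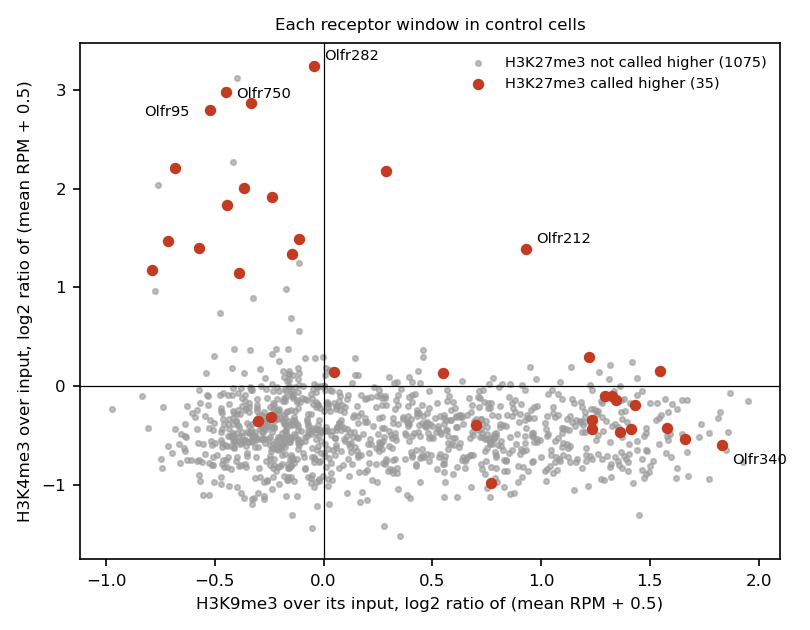
H3K9me3 (horizontal axis) and H3K4me3 (vertical axis) over input in control cells for the 1110 receptor windows, each as the log2 ratio of mean RPM + 0.5. Red dots are the 35 members called higher for H3K27me3 by limma and grey dots the other 1075. Red dots lie in the upper left with Olfr95 and Olfr750 and in the lower right with Olfr340, and Olfr212 stands in the upper right.

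Knockout was compared with control in each mark over those windows whose mean reached 1 RPM, which kept few receptors. For H3K4me3 there were 22 of 1110, of which 21 had a control mean of at least 1 RPM and 11 a knockout mean of that size. The windows thus passed mostly through their control level, and their counts do not stand for all members. Olfr179 (1.01 RPM over the 4 libraries) passed and Olfr599 (0.889 RPM) did not. H3K4me3 fell in 5 of the 22, Olfr658, Olfr1349, Olfr982, Olfr281 and Olfr222, where 9.9% of all windows tested fell, and rose in 0, where 0.0512% of all windows rose. By limma without adjustment 14 were lower and 0 higher at p under 0.05. A lower filter gave other values: at 0.25 RPM, 399 members were tested, 1 was called higher and 6 lower, 42 were higher and 18 lower without adjustment, and the median log2 change was 0.85. Without a filter it was 0.78 over 1103 members, with 5 called higher and 6 lower. In these windows knockout replicate 1 holds few or no reads. There 1 read is worth 0.261 RPM, against 0.0965 and 0.0554 RPM in the controls and 0.0603 RPM in knockout replicate 2. A window without a read carries the value of 0.9 read, so equal read counts give a higher log2 RPM in that library. The positive medians can therefore not be read as a rise of the mark, and the part of that library in them was not tested.

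Olfr658 (chr7:104642880-104647305), a class I receptor, had 2.70 and 3.11 RPM in control and 0 and 0.302 RPM in knockout (0 and 5 reads), a log2 change of -3.44 (SE 0.84, adjusted p 0.00586). Olfr281 (chr15:98456312-98457247) had 5.02 and 6.27 RPM in control and 0.522 and 2.17 RPM in knockout, a change of -2.40 (SE 0.67, adjusted p 0.0137). Olfr1349 (chr7:6514396-6515449) had 2.12 and 2.88 RPM and then 0 and 0.664 RPM (-2.65, SE 0.82, adjusted p 0.0252). Both knockout libraries lay below both controls at each of these, as at 21 of the 22 members and 42.8% of all windows tested. So they did at Olfr982 (2.32 and 1.94 RPM, then 0.261 and 0.603 RPM) and Olfr222 (1.93 and 2.61 RPM, then 0 and 0.784 RPM), whose changes were -2.42 (SE 0.83) and -2.39 (SE 0.82), each with an adjusted p of 0.0424. The members with the highest H3K4me3 did not pass: Olfr750 went from 8.01 and 9.70 RPM to 5.22 and 3.98 RPM (-0.95, SE 0.50, adjusted p 0.215), and Olfr282 from 6.85 and 9.65 RPM to 2.61 and 4.52 RPM (-1.24, SE 0.53, adjusted p 0.111).

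Olfr179, at the edge of the filter, had 0.965 and 0.832 RPM in control and 1.83 and 0.422 RPM in knockout (the plot of H3K4me3 in knockout and control). Without control replicate 1 or 2 the count of 5 became 0, as did the count of windows called lower among all 15624 tested (1546 with both), while the median change of the 22 was -1.54 and -1.33. It was 7 without knockout replicate 1, the shallow library, and 16 without knockout replicate 2. With median centring 3 passed, with voom 11, after quantile normalization 0, and with each library set over its input 1 (Olfr281). Over all 1110 windows, including those at the level of background, the mean H3K4me3 in knockout was not below that of control, as given above.

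**Figure D5:**
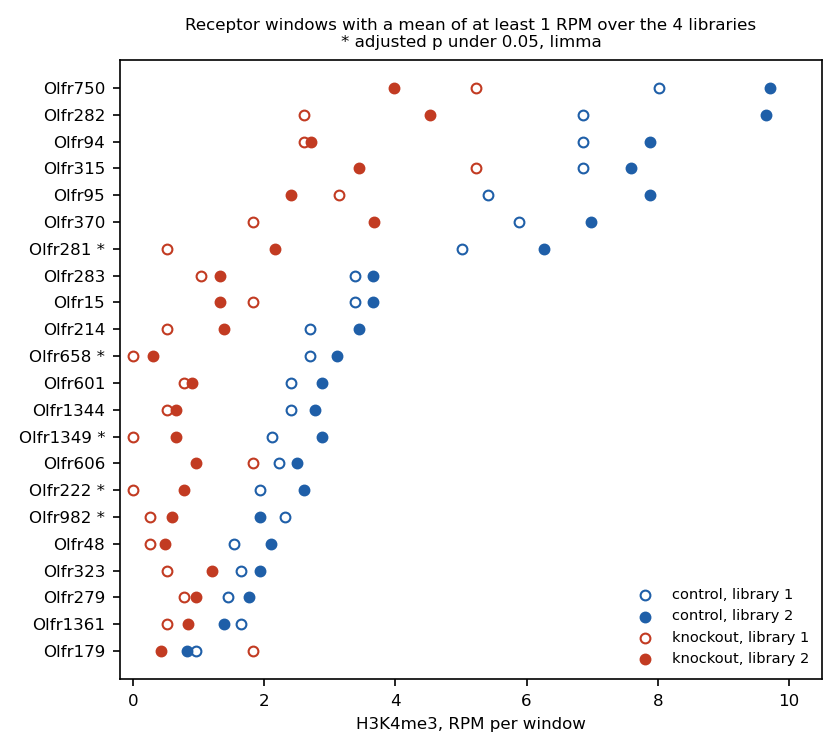
H3K4me3 in RPM (horizontal axis) in 2 control libraries (blue) and 2 knockout libraries (red) for the 22 receptor windows whose mean reached 1 RPM (rows, ordered by control mean). Open and filled dots are replicates 1 and 2, and stars mark an adjusted p under 0.05 by limma. The windows were kept by their mean, which 21 reach in the control libraries and 11 in the knockout libraries, so red dots to the left of blue dots are in part set by that choice.

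Against input in knockout cells, H3K4me3 was called higher in 11 of 907 members (1.21%, where all windows gave 63.1%) and lower in 33 (3.64%, where all windows gave 1.63%). Olfr315 led, with 5.22 and 3.44 RPM against 0.507 and 0.281 RPM (3.49, SE 0.66), followed by Olfr282 (2.90, SE 0.66). Olfr54 (2.87, SE 0.93) and Olfr786 (2.66, SE 0.91) rested on 5 and 4 reads and on 6 and 5 reads in the 2 knockout libraries. In knockout replicate 1 a read is worth 0.261 RPM, where the inputs averaged 0.400 and 0.408 RPM per member. The 33 called lower can therefore not be set against the count in control. The median log2 difference of members was -0.66, and -0.94 without knockout replicate 1 and -0.48 without knockout replicate 2.

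No receptor window passed the test for a change of H3K27me3. Among the 53 members whose mean reached 1 RPM, 0 were called higher and 0 lower by limma, where 0.791% and 0.0% of all windows were, and 0 members had an unadjusted p under 0.05. The voom fit on whole reads also gave 0, while median centring gave 3 lower and 0 higher. The median log2 change was 0.27 in these members and 0.45 over all windows tested. The 5 windows that fell in H3K4me3 had log2 changes of H3K27me3 of 0.38 (SE 0.58) at Olfr658, 0.43 (SE 0.56) at Olfr1349, 0.39 (SE 0.59) at Olfr982, 0.16 (SE 0.60) at Olfr281 and -0.09 (SE 0.60) at Olfr222. Each of these changes was smaller than its SE. Against input in knockout, 43 of 974 members were called higher (4.41%, where all windows gave 17.7%) and 2 lower (0.205%, where all windows gave 2.76%). The inputs differed at 0 of 22 windows (0.0% of all windows in either direction), with 2 lower and 0 higher at an unadjusted p under 0.05, and voom also gave 0.

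RNA from receptor genes was scarce. Of 1099 members, 96 had a read in at least 1 of the 4 libraries (8.74%, where 85.0% of all genes did), 25 had at least 10 reads in all, and 1003 had none, which allows up to 0.0178 RPM at 3 reads over the 4 libraries, counting error only. Summed over members there were 498 and 510 reads in control and 808 and 728 in knockout, and without Olfr56 373 and 386 against 457 and 462. The 5 members with the most reads held 68.1% of them. RPM in RNA is not divided by gene length, and the libraries are directional, with the strand setting of the counts not given.

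Olfr56 alone rose among the 3 members tested (mean log2 RPM of at least 0), where 3.01% of all genes tested rose and 0.312% fell. It had 125 and 124 reads in control and 351 and 266 in knockout, that is 3.25 and 2.79 RPM and 7.67 and 6.65 RPM, and the groups did not overlap. The log2 change was 1.24 (SE 0.16, adjusted p 0.0206). It was no longer called after quantile normalization (adjusted p 0.0631) or without a filter on low genes (0.0761). Its gene model (chr11:48978889-49135387) spans 156499 bp and covers the interferon-inducible GTPase genes Ifi47, Tgtp1 and Tgtp2, and its chromatin window had 0 reads in all 16 libraries. Tgtp2 had 44 and 43 reads in control and 87 and 100 in knockout (log2 change 1.05, SE 0.24, adjusted p 0.0669), and Gm12185, also inside, changed by 0.14 (SE 0.10). The part of these genes' reads in the value of Olfr56 was not tested.

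The other members tested did not pass. Olfr316 (chr11:58757604-58758614) had 98 and 91 reads in control and 83 and 114 in knockout, at 2.55 and 2.05 RPM and 1.81 and 2.85 RPM, a log2 change of -0.01 (SE 0.26, adjusted p 0.991). Its window had 1 and 3 reads of H3K4me3 in control. Olfr138 (chr17:38261067-38275711) had 37 and 52 reads in control and 65 and 44 in knockout (0.23, SE 0.26, adjusted p 0.685), with H3K9me3 at 1.48 and 1.48 RPM against 0.252 and 0.331 RPM of input. Both are genes with RNA in every library and no H3K4me3 called at their window. Olfr1349, whose H3K4me3 fell, was below the RNA filter, with 37 and 23 reads in control and 36 and 43 in knockout.

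RNA was set beside the chromatin calls as a description. Of the members called higher for H3K4me3, 7 of 22 in the RNA table had a read (31.8%), with 174 reads in all. Of those called higher for H3K9me3 it was 16 of 360 (4.44%, 261 reads), and of those called higher for H3K27me3 4 of 34 (11.8%, 226 reads). The share over all members in RNA was 8.74%. Since 5 members held 68.1% of all member reads, these totals can rest on few genes. Of 11 listed for their use in studies of odour coding, receptor choice or expression outside the nose, 10 are in both tables and 3 had a read: Olfr151 (the M71 receptor), with 6 and 2 reads in control and 0 and 4 in knockout, Olfr558 with 0 and 1 and then 0 and 1, and Olfr1393, a receptor known from kidney, with 1 and 4 and then 1 and 6. Olfr16 (MOR23, known from sperm) and Olfr78 (known from carotid body and vessels) had none. For H3K9me3, 1 of the 10 was called higher (Olfr73, 1.54, SE 0.36) and 5 lower (Olfr16, Olfr78, Olfr151, Olfr544 and Olfr1393). The shares higher and lower were 33.2% and 14.3% over all members tested, and 5.69% and 81.2% over all windows tested.

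Genes that receptors depend on in the nose were given from lists. For olfactory transduction and trafficking, 2 of 6 tested fell in H3K4me3 in knockout and 0 rose, where 9.9% and 0.0512% of all windows did: Reep1, which helps receptors to the membrane, by -1.33 (SE 0.43, adjusted p 0.0337), and Adcy3, the adenylyl cyclase of the cascade, by -1.21 (SE 0.39, adjusted p 0.0300). In RNA 0 of 6 passed in limma, with 1 higher and 1 lower at an unadjusted p under 0.05. For receptor choice, 1 of 10 fell in H3K4me3 (Ebf4, -1.13, SE 0.39), close to the share of all windows, and 1 of 9 rose in RNA, where 3.01% of all genes did. That gene was Lhx2, a homeodomain factor of receptor enhancers and promoters, with 1.14 and 1.33 RPM in control and 2.82 and 2.80 RPM in knockout (1.19, SE 0.20, adjusted p 0.0320). For H3K9 methyltransferases and readers of the mark, 0 of 12 passed for H3K4me3 and 0 of 13 for RNA in limma, with 0 at an unadjusted p under 0.05 in either. Among feeder markers 1 of 10 rose in RNA (Col1a1, 0.71, SE 0.12, adjusted p 0.0307) and among germline stem cell markers 3 of 11 (Ret, Nanos2 and Gfra1), with 0 lower in either, and the part of either cell type in the RNA values was not tested.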

How the data were processed

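Chromatin (16 libraries) and RNA (4 libraries) were deposited by the authors as 2 tables of log2 RPM per gene. The submitters' processing notes name CASAVA 1.8, Trim Galore 0.4.0, Bowtie 1.1.1, TopHat2 2.0.14 and build mm10, without roles. How reads shared by near-identical receptors were counted is not given in the sources used here. Windows without a read carry the value of 0.9 read in the deposited log2 tables, so whole reads could be recovered (within 0.1 of a whole number).

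Tests were limma 3.58.1 with a mean-variance trend (R 4.3.3) on the deposited log2 RPM, two-sided, over all windows or genes, with Benjamini-Hochberg adjustment and calls at 0.05. Filters on the mean were 0.1 RPM for H3K9me3 over input, 0.25 RPM for H3K4me3 and H3K27me3 over input, 1 RPM for knockout against control and a mean log2 RPM of 0 for RNA. Summed levels set reads without a value at 0.

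Named genes were, per comparison, the members called with the largest changes (up to 10 in each direction), the 10 members highest in each mark and RNA, the extreme clusters, and receptors known from other work. Other genes are named for the combination of marks at them, after their values were seen. Receptor class was taken from hyphenated MOR family numbers in RefSeq synonyms (below 100 for class I, family 0 and conflicting numbers left out), a rule set after the tables were seen in place of one based on newer symbols. The members and lists were chosen with earlier results of these data known. Alternatives were other scalings, filters and pseudocounts (0.5 RPM), limma voom on recovered reads, a replicate block, libraries over input, cluster gaps of 0.5 Mb, CG counted before the start alone (chosen after seeing the data) and leaving out each library.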

Additional observations from a re-analysis of the deposited data

Results flagged for a closer look

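Olfr281 on chromosome 15 was the receptor window at which the difference between genotypes also held with each H3K4me3 library set over its same-numbered input, in a test of that difference itself. On the log2(RPM + 0.5) scale the ChIP-to-input difference was lower in knockout than in control by -2.14 (SE 0.60, limma adjusted p 0.0408). Its cause was not tested.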

How the results depend on the processing

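Calls over input depend on scaling, since most windows lie far from input; the values here are numbers of receptor windows called. H3K9me3 was higher in 836 with median centring and in all 75 tested with a mean of at least 1 RPM (313 of 324 over all windows), and lower in 0 with either and with quantile normalization. Its inputs averaged 0.302 and 0.333 RPM per member, so members reach 1 RPM mostly through the mark itself. Counts at 1 RPM, here and below, are therefore in part set by the filter and do not test the calls. H3K4me3 in control was higher in 0 with median centring and 0 with quantile normalization, and lower in 684 with median centring, 0 with quantile normalization and 0 at 1 RPM. H3K27me3 in control was higher in 53 with median centring, 0 with quantile normalization and 20 of 25 tested at 1 RPM. In knockout, H3K4me3 was higher in 0 with median centring, 0 with quantile normalization, 7 with voom and 6 of 7 tested at 1 RPM, and lower in 871 with median centring, 0 with quantile normalization, 80 with log2(RPM + 0.5) and 0 at 1 RPM. H3K27me3 in knockout was higher in 0 with quantile normalization. With median centring, 6 log2 differences of H3K4me3 over input changed sign: in control Olfr282 to -0.27, Olfr315 to -0.33 and Olfr281 to -0.49, and in knockout Olfr315 to -0.17, Olfr282 to -0.77 and Olfr54 to -0.80. The median over members of the ChIP-to-input ratio, taken on the log2(RPM + 0.5) scale, was 1.09 for H3K9me3 in control. For H3K4me3 and H3K27me3 it was 0.731 and 1.00 in control, and 0.776 and 1.00 in knockout. The added 0.5 RPM exceeds the mean input per member and draws these medians towards a ratio of 1. They are therefore not the summed ratios on another scale. Scaled to reads in windows, the summed ratios were 4.42 for H3K9me3, 0.0291 for H3K4me3 and 0.764 for H3K27me3 in control. In knockout the ratios so scaled were 0.0389 for H3K4me3 and 0.623 for H3K27me3. Without the 10 members with the most reads, the summed ratios on the deposited scale were 0.438 for H3K4me3 and 1.11 for H3K27me3 in control. For H3K27me3 in knockout the ratio was 1.12.

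For H3K4me3 in knockout against control, windows called lower numbered 3 with median centring, 0 with quantile normalization, 11 with voom and 1 over input. H3K27me3 in knockout against control was lower in 3 with median centring. RNA was higher in 0 with quantile normalization and 0 without a filter. Replicate numbers are shared between groups, and duplicate cell lines were used, but no label ties a number to a line; with a replicate block, 14 windows fell in H3K4me3 and 1 rose in H3K27me3 (correlations of replicate differences 0.148 and 0.0617). No paired analysis was possible for H3K9me3 because its inputs are numbered 3 and 4 and its ChIP libraries 1 and 2.

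Leaving out 1 library at a time gave 333 to 474 windows higher and 34 to 241 lower for H3K9me3, 19 to 23 and 12 to 294 for H3K4me3 in control, 0 to 36 higher for H3K27me3 in control, 7 to 17 and 1 to 119 for H3K4me3 in knockout, and 0 to 33 higher for H3K27me3 in knockout. H3K9me3 was lower in 55 without input 3 and 34 without input 4, H3K4me3 in control in 12 without input 1 and 40 without input 2, and H3K27me3 in knockout was higher in 0 without its replicate 1 and 12 without its replicate 2. Knockout against control gave 0 to 16 for H3K4me3, 0 to 0 for H3K27me3 and input, and 1 to 1 for RNA. The summed ratios ranged from 1.66 to 2.12, 0.533 to 0.598 and 1.16 to 1.21 in control, and from 0.573 to 0.724 and 1.20 to 1.22 in knockout. Most single windows hold few reads, which limits their log2 values. Cluster gaps of 0.5 Mb left the highest and lowest clusters the same.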
